A study of Homo sapiens with 5 samples.

Results

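The genes described here are 42 nuclear receptor genes, chosen by name from the receptor family with NR5A and NR0B receptors left aside, and they stand among 20163 protein-coding genes of the annotation. Each was examined for peaks of steroidogenic factor-1 (SF-1), the nuclear receptor encoded by NR5A1. The peaks came from sequenced chromatin immunoprecipitates (ChIP-seq) of a human adrenocortical tumor line, the established line H295R, in its subclone H295R/TR SF-1, where doxycycline switches on extra SF-1. Chromatin was taken at basal SF-1 dosage, without doxycycline, and at overexpressed dosage, after 3 days with it. Each was precipitated with 2 anti-SF-1 antibodies, called Millipore and Perseus as in the sample titles. Every group shared this one subclone and its endogenous SF-1, and the effects of doxycycline and of the extra SF-1 cannot be told apart.

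For every pairing of a dosage with an antibody, 3 libraries were pooled by the authors before peak calling, and 2 libraries of input DNA were the control. The result was 4 lists, with 4393 peaks for basal Millipore, 11910 for overexpressed Millipore, 6616 for basal Perseus and 7453 for overexpressed Perseus. The number of reads behind each list is unknown, there is no replicate list, and no p-value was computed. Intervals below are 95% intervals that cover counting error over genes or peaks only. A gene without a listed peak is a gene where none was called at this depth.

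Nuclear receptors are transcription factors that read short DNA sequences built from a hexamer close to AGGTCA. Steroid receptors bind DNA mostly as pairs, many receptors for thyroid hormone, retinoids, vitamin D and lipids bind together with a retinoid X receptor, and others, SF-1 among them, can bind as single molecules to a hexamer preceded by a few fixed bases. The adrenal cortex makes glucocorticoids, mineralocorticoids and androgens, and SF-1 is required for its development and for expression of steroidogenic enzymes. In what follows, a peak was assigned to a gene when its centre lay within 1, 10 or 100 kb of the outermost start of the gene. Upstream and downstream are given relative to that start in the direction of transcription, and the rank is the position of a peak in its list, with 1 the first.

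Close to the start, few receptor genes had a peak. Within 1 kb the basal Millipore list had a peak at 0 of 42 members, which allows a share of up to 8.38% by the Wilson method, where 1.02% of all protein-coding genes had one. The overexpressed Millipore list had 5 members with a peak, or 11.9% (5.19 to 25%), where 8.19% of all genes had one. The basal Perseus list had 3, or 7.14% (2.46 to 19%), against 9.56% of all genes, and the overexpressed Perseus list had 5, or 11.9% (5.19 to 25%), against 10.5%. Counted from the outermost start, each background share lay within the interval of the members. With every annotated transcript start counted, the members within 1 kb were 0, 6, 4 and 10 in the same order of lists. The shares of all genes were then 1.55%, 11%, 11.5% and 12.7%, and no interval was computed for these counts. The rise was largest in the overexpressed Perseus list, from 5 to 10 members.

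From the outermost start, the background shares also lay within the members' intervals at 10 kb. The basal Millipore list again had 0 members, against 4.38% of all genes. When every annotated transcript start was counted, this became 2 members, RORB and NR4A1, against 5.9% of all genes. The overexpressed Millipore list had 9 members, or 21.4% (11.7 to 35.9%), beside 19% of all genes. The basal Perseus list had 5 members, 11.9%, beside 15.5%, and the overexpressed Perseus list had 11 members, 26.2% (15.3 to 41.1%), beside 17.1%. At this distance too the members' intervals took in the shares of all genes.

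Within 100 kb the counts in the lists as deposited depended on the antibody. With Millipore, 13 of 42 members (31%, interval 19.1 to 46.0%) had a peak at basal dosage and 27 (64.3%, 49.2 to 77.0%) at overexpressed dosage, close to the 30.7% and 61.5% of all genes. With Perseus, 26 members (61.9%, 46.8 to 75%) had one at basal dosage and 29 (69%, 54.0 to 80.9%) at overexpressed dosage, where 47.2% and 51.2% of all genes did. In the overexpressed Perseus list the background lay below the members' interval, and in the basal Perseus list it lay just inside it.

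Genes of like base composition gave nearly the same picture. For each member, the share of other protein-coding genes in the same of 10 classes of promoter GC content (500 bp to each side of the start) that had a peak was taken, and these shares were summed over the members. At 100 kb the sums were 12.8 members for basal Millipore, 25.6 for overexpressed Millipore, 19.5 for basal Perseus and 21.1 for overexpressed Perseus. The observed counts were above these sums by 0.245 and 1.45 members with Millipore, and by 6.54 and 7.89 members with Perseus. With every list held to its 4393 best-ranked peaks, the excess was 3.3 members for overexpressed Millipore, 2.75 for basal Perseus and 2.2 for overexpressed Perseus, with 18 members having a peak in each of these 3 lists. Promoter GC content of the members had a median of 58.2%, against 59.1% over all genes. The members had fewer neighbours and longer bodies than usual, with a median of 1 other protein-coding start within 100 kb against 3, and a median length of 65.4 kb against 27.2 kb.

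**Figure D1:**
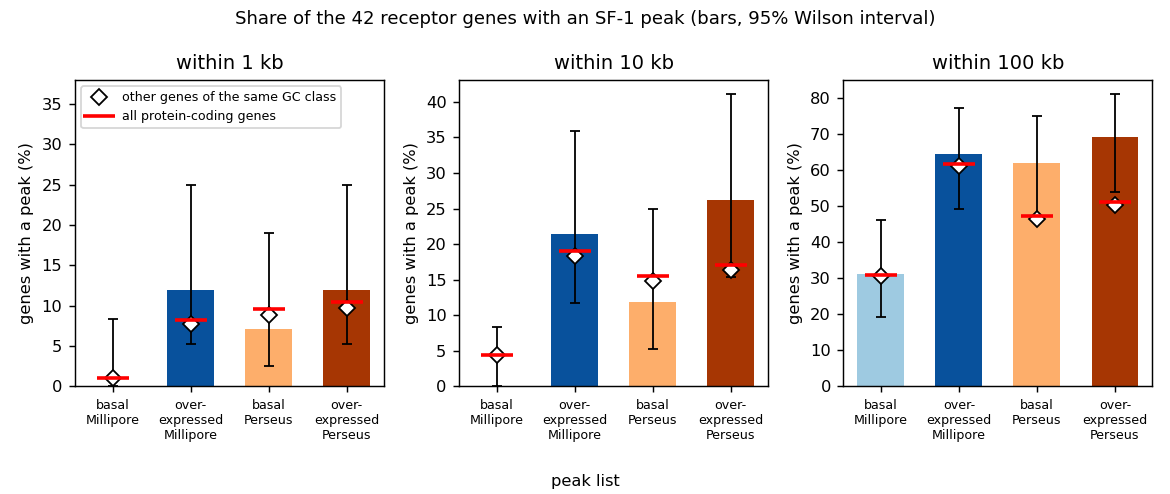
Percentage of genes with a peak within 1, 10 and 100 kb of the start in each list, for the 42 members (bars with Wilson 95% intervals), all 20163 protein-coding genes (red lines) and other genes of the same GC class (diamonds). At 1 and 10 kb the red lines lie within the intervals, and at 100 kb the Perseus lists place the members, at 61.9% and 69%, above all genes, at 47.2% and 51.2%.

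Across the lists, 38 of the 42 members had a peak within 100 kb in at least 1 list, where 79.9% of all genes did. ESRRB, ESRRG, NR1I2 and NR2F1 were the 4 without any, against 20.1% of all genes. ESRRA, HNF4A, NR1I3, NR4A1, NR4A3, NR6A1, PPARA, RARG and RXRB, 9 genes, had a peak in all 4 lists, against 15.1% of all genes. Within 1 kb, 32 members had no peak in any list, against 80.2% of all genes, and 0 members had one in all 4, against 0.184%. The receptors with the most peaks, summed over lists within 100 kb, were NR6A1 with 29, ESRRA with 24 and RARG with 13. In these sums a site found in several lists was counted once for each list. Where a gene below is given 4 numbers of peaks, these are the peaks within 100 kb in the order basal Millipore, overexpressed Millipore, basal Perseus and overexpressed Perseus.

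**Figure D2:**
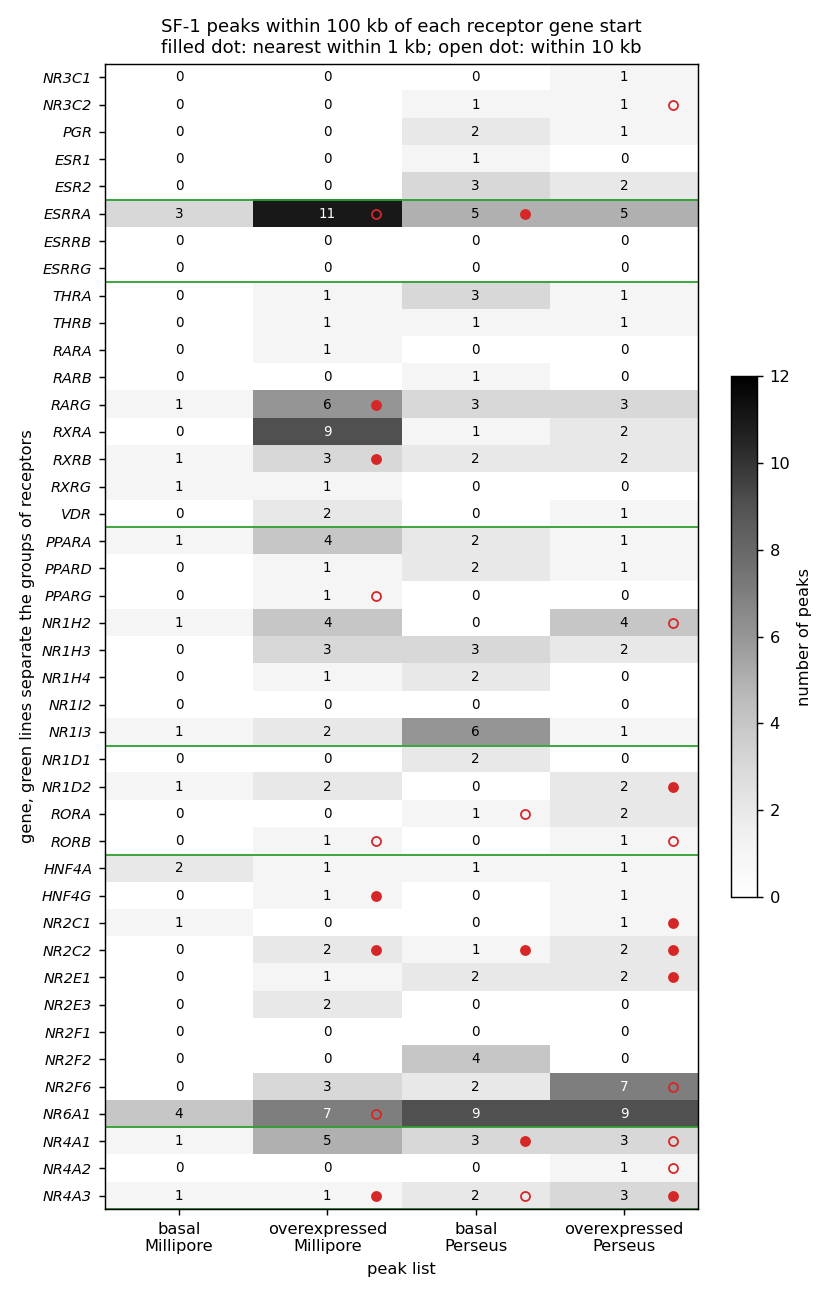
Number of peaks within 100 kb of the start for each of the 42 members (rows, by role) in each of the 4 lists (columns), with green lines between groups. A filled red dot marks a gene whose nearest peak lies within 1 kb, and an open one within 10 kb. NR6A1 holds 4, 7, 9 and 9 peaks and ESRRA 3, 11, 5 and 5, while ESRRB, ESRRG, NR1I2 and NR2F1 hold none.

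Before the genes are taken by role, the sites that several lists shared are shown. Overlapping peaks of different lists were joined into sites, so that peaks at the 2 ends of a site need not overlap each other. The 223 peaks near the members formed 182 sites, of which 150 came from 1 list, 25 from 2, 5 from 3 and 2 from all 4. The SF-1 consensus searched has 9 letters, namely C or T, then CAAGG, then C or T, then C, then A or G, on either strand and without mismatch, and it can overlap the half-site AGGTCA. It stood in 17 of the 150 sites of 1 list, in 7 of the 25 sites of 2 lists, in 1 of the 5 sites of 3 lists and in 1 of the 2 sites of all 4 lists. Most sites near receptor genes lacked an exact copy, but the share with one was lower among sites of 1 list than among those that recurred. Sites that recurred were joins of peaks and often wider, which leaves more sequence for a match. The shares were not adjusted for width.

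Sites of 3 or 4 lists without bases of an untranslated exon, and a pair of sites chosen after their values were seen, are printed below from the GRCh37 (hg19) plus strand, up to 300 bases each, in lower case with exact copies of the consensus in capitals. They are shown so that the single copy near NR6A1, the overlapping copies near NR1H3 and PPARA, the copy inside RORB and the lack of a copy near NR4A1 and ESRRA can be compared.
NR6A1, chr9:127602458-127602757, in 4 lists: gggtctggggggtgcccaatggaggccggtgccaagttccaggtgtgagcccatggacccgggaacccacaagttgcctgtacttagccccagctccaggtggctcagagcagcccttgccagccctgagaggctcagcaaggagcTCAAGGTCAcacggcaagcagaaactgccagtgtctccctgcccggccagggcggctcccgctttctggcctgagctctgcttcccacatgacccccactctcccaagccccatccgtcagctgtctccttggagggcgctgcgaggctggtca
NR1H3, chr11:47360451-47360749, in 3 lists: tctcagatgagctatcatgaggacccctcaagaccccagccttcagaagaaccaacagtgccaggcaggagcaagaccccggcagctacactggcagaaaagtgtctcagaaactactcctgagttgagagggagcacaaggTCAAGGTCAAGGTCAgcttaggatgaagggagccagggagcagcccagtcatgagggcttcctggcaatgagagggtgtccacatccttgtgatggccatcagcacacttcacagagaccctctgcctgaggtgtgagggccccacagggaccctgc
NR4A1, chr12:52458175-52458474, in 3 lists: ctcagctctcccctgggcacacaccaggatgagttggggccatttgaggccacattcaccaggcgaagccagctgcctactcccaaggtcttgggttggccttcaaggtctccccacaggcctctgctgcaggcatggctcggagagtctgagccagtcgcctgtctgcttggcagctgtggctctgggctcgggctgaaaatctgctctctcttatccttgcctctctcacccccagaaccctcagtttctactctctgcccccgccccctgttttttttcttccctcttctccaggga
ESRRA, chr11:64121651-64121899, in 3 lists: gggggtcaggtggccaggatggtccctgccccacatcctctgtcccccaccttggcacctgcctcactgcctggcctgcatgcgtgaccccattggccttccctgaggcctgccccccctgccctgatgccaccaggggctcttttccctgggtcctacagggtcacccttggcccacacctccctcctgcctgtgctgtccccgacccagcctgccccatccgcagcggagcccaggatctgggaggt
PPARA, chr22:46519755-46520054, in 2 lists, chosen after its values were seen: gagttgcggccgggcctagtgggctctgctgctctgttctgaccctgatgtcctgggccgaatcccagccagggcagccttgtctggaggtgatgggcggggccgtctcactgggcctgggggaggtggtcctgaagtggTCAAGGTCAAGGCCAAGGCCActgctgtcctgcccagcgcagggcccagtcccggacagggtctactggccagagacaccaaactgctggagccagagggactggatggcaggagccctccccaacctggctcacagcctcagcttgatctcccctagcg
RORB, chr9:77296851-77297149, in 3 lists, chosen after its values were seen: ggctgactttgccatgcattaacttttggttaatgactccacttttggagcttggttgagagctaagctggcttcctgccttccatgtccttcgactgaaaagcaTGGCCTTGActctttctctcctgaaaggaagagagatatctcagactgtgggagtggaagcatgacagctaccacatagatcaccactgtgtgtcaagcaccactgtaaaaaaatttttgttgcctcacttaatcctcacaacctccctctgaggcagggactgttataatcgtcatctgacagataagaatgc

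In the NR1H3 sequence, 2 copies of TCAAGGTCA start 6 bases apart, so that the last letters of one are the first of the next. In the PPARA sequence, 3 copies follow one another at the same spacing. Such copies 6 bases apart were rare in the lists. They were found in 13 peaks (0.296%) of the basal Millipore list, 48 (0.403%) of the overexpressed Millipore list, 11 (0.166%) of the basal Perseus list and 23 (0.309%) of the overexpressed Perseus list. Near the members there were 0, 2, 1 and 1 such peaks in the same order, all at the NR1H3 and PPARA sites.

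The steroid receptors comprised NR3C1 (the glucocorticoid receptor), NR3C2 (the mineralocorticoid receptor), PGR (the progesterone receptor) and the estrogen receptors ESR1 and ESR2. Within 100 kb, 0 of these 5 genes had a Millipore peak at either dosage, where 31.2% of all genes had none. All 5 had a Perseus peak at one dosage or the other, where 37.4% of all genes had none. The Perseus lists held 7 peaks near 4 of them at basal dosage and 5 peaks near 4 of them at overexpressed dosage. With so few genes this is a count and carries no test.

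None of the steroid receptor peaks lay within 1 kb of an outermost start. NR3C1 had 1 peak, of rank 5313 in the overexpressed Perseus list, in an intron 32502 bp downstream of the outermost start. Another annotated transcript start of NR3C1 was 273 bp from this peak. NR3C2 had a basal Perseus peak of rank 5849 in an intron at 68575 bp, with the copy TCAAGGTCA. It also had an overexpressed Perseus peak of rank 3522 at 2175 bp, which was 3 bp from another annotated transcript start. ESR1 had 1 basal Perseus peak in an intron of its neighbour CCDC170, 85801 bp upstream. These were single-list peaks, and the 2 NR3C2 peaks did not overlap.

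ESR2 had 3 basal and 2 overexpressed Perseus peaks, and PGR had 2 and 1. One ESR2 site recurred between dosages, with rank 1841 at basal and 710 at overexpressed dosage. It lay about 201 to 226 bp from the start of MTHFD1, the neighbouring gene, and 50120 bp or more upstream of ESR2. Beyond the 100 kb window, the bodies of these genes did hold Millipore peaks, 1 at basal dosage in an intron of ESR1 (428274 bp from the start) and 2 at overexpressed dosage near the far end of NR3C2. An intron site of ESR1 at 101224 bp, just outside the window, was found at both dosages with Perseus, with ranks 445 and 4267 and a copy of the consensus.

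Among the estrogen-related receptors, orphan receptors whose own binding sequence is very close to that of SF-1, ESRRA stood apart from ESRRB and ESRRG. ESRRA, a regulator of mitochondrial energy metabolism, had 3, 11, 5 and 5 peaks. ESRRB and ESRRG had 0 peaks within 100 kb in every list, though the long body of ESRRG held 2 overexpressed Millipore peaks and 1 overexpressed Perseus peak farther away. ESRRA also lies in a gene-dense stretch of chromosome 11, with 17 other protein-coding starts within 100 kb, and ESRRB and ESRRG had 0. The start of ESRRA was the nearest start for 1 of its 24 peaks.

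That peak was in the basal Perseus list with rank 4734, in an intron 556 bp downstream of the start, and it had no copy of the consensus. Of the sites in 3 lists near ESRRA, the one in an intron of CCDC88B at chr11:64121651-64121899 had rank 2269 in basal Millipore, 6075 in overexpressed Millipore and 4008 in overexpressed Perseus. The other, at chr11:64037701-64038049, lay at the start of GPR137 and had rank 972 in overexpressed Millipore, 2941 in basal Perseus and 4067 in overexpressed Perseus. In the GPR137 site the basal and overexpressed Perseus peaks each overlapped the Millipore peak and did not overlap each other. Neither site held a copy of the consensus, and of the 24 peaks near ESRRA 1 did.

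Thyroid hormone, retinoid and vitamin D receptors are ligand-activated receptors, and the RXR genes encode the partner that many other receptors need. As a group of 9 genes they had 3 peaks near 3 genes in the basal Millipore list and 24 peaks near 8 genes in the overexpressed Millipore list. With Perseus, 11 peaks near 6 genes at basal dosage and 10 peaks near 6 genes at overexpressed dosage were found. Over all genes, 30.7% had a Millipore peak within 100 kb at basal and 61.5% at overexpressed dosage. The all-gene shares with Perseus were 47.2% and 51.2%. The higher count at overexpressed dosage was thus seen with Millipore, and the Perseus counts were nearly equal. The whole lists differed in the same way, by ratios of 2.71 with Millipore and 1.13 with Perseus.

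RXRA, the retinoid X receptor alpha, made up much of the Millipore difference in this group, with 0, 9, 1 and 2 peaks. The start of RXRA was the nearest protein-coding start for all 12 of these peaks. Its basal Perseus peak had rank 310 and lay in an intron at 10081 bp, 724 bp from another annotated transcript start. A site 25519 bp upstream was common to both overexpressed lists, with rank 1394 for Millipore and 1625 for Perseus. RXRB had 1, 3, 2 and 2 peaks. Among them, an overexpressed Millipore peak of rank 10456 lay in a coding exon of the neighbour SLC39A7, 783 bp upstream of the RXRB start. RXRG had 1 peak in each Millipore list and none with Perseus.

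RARG, the retinoic acid receptor gamma, had 1, 6, 3 and 3 peaks. It was near one of the 2 sites in all 4 lists, chr12:53645201-53645399, which had rank 858 in basal Millipore, 8923 in overexpressed Millipore, 1801 in basal Perseus and 6285 in overexpressed Perseus. That site lay in an intron of MFSD5, about 265 bp from the start of MFSD5 and 18536 bp upstream of RARG, and it had no copy of the consensus. RARG itself had an overexpressed Millipore peak of rank 4227, 611 bp upstream of its start, and this was the 1 of its 13 peaks with RARG as the nearest start. The other retinoic acid receptors had less, RARA 1 overexpressed Millipore peak and RARB 1 basal Perseus peak.

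THRA, the thyroid hormone receptor alpha, had 0, 1, 3 and 1 peaks, and its site in 3 lists, chr17:38137051-38137499, lay at the start of PSMD3, 77268 bp upstream. Its ranks were 392 in overexpressed Millipore, 4854 in basal Perseus and 3590 in overexpressed Perseus. THRA shares its neighbourhood with the clock gene NR1D1, and 2 basal Perseus peaks counted for both genes. THRB had 0, 1, 1 and 1 peaks. The vitamin D receptor gene VDR had 0, 2, 0 and 1.

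The lipid and xenobiotic sensors bind fatty acids, oxysterols, bile acids and foreign compounds. These 8 genes had 3 Millipore peaks near 3 genes at basal dosage and 16 near 7 genes at overexpressed dosage. Their Perseus peaks were 15 near 5 genes at basal and 9 near 5 genes at overexpressed dosage. Here the antibodies went opposite ways with dosage, more peaks with Millipore and fewer with Perseus. The shares of all genes with a peak at basal and overexpressed dosage were 30.7% and 61.5% with Millipore, and 47.2% and 51.2% with Perseus. Much of the Perseus difference was at NR1I3, the constitutive androstane receptor, with 6 basal and 1 overexpressed peaks.

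PPARA, a receptor for fatty acids that raises their oxidation, had 1, 4, 2 and 1 peaks. Its start was the nearest one for all 8, and 6 of the 8 held the consensus. By peaks this was more than near any other member except NR6A1, which had 7 of 29. Peaks of several lists at one site were counted separately here. By joined site, PPARA had more sites with a copy than NR6A1. The site with 3 overlapping copies, at chr22:46519751-46520199, was intergenic and 26449 bp upstream of the start. At overexpressed dosage it had rank 739 with Millipore and 4650 with Perseus, and it was in neither basal list. Another site, in an intron of the microRNA host gene MIRLET7BHG about 46049 bp upstream, had rank 676 in basal Perseus and 4738 in overexpressed Millipore.

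The liver X receptors NR1H2 and NR1H3 are sensors of oxysterols and control cholesterol export. NR1H2 had 1, 4, 0 and 4 peaks, more at overexpressed dosage with either antibody. NR1H3 had 0, 3, 3 and 2 peaks, and the site with overlapping copies, in an intron of MYBPC3 and 90749 bp downstream of the NR1H3 start, had rank 186 in overexpressed Millipore, 3195 in basal Perseus and 6054 in overexpressed Perseus. The start of MYBPC3 itself was closer to it, at 13653 bp. The overexpressed Perseus peak of this site began inside the overlapping copies and held no whole copy. The bile acid receptor gene NR1H4 had 0, 1, 2 and 0 peaks, PPARD 0, 1, 2 and 1, and PPARG 0, 1, 0 and 0.

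The clock receptors, which repress or activate genes of the circadian oscillator, were NR1D1, NR1D2, RORA and RORB. NR1D2 had 1, 2, 0 and 2 peaks, and 1 of them, in the overexpressed Perseus list with rank 6193, was 673 bp downstream of the start, close to the divergent gene NKIRAS1 at 632 bp. RORA had 0, 0, 1 and 2 peaks and NR1D1 had 0, 0, 2 and 0. RORB had 0, 1, 0 and 1 within 100 kb, the Millipore peak with rank 183 in an intron 1349 bp downstream of the start. Further RORB peaks lay beyond the window.

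In the basal Millipore list, an intron of RORB held the peak of rank 13, at 184749 bp from the start, and another of rank 105, at 108849 bp. The former overlapped basal Perseus rank 3756 and overexpressed Perseus rank 1537, and its sequence, printed above, held 1 copy, TCAAGGCCA on the minus strand. It was in 3 lists and missing from the overexpressed Millipore list, the longest of the 4. These peaks were chosen after their values were seen.

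Over whole gene bodies, joined where they overlap, the members spanned 6.21 Mb and held 8, 20, 20 and 28 peaks in the basal Millipore, overexpressed Millipore, basal Perseus and overexpressed Perseus lists. This was 1.29 peaks per Mb (exact Poisson interval 0.556 to 2.54), 3.22 (1.97 to 4.97), 3.22 (1.97 to 4.97) and 4.51 (2.99 to 6.51). Bodies of all protein-coding genes had 1.72, 5.37, 2.88 and 3.37 per Mb. In the overexpressed Millipore list the receptor bodies were thus below the level of all genes by more than counting error, and in the other lists the difference was within it. The members were not matched on length, and their bodies were longer, with a median of 65.4 kb against 27.2 kb. The part of length in this difference was not tested. Within 100 kb of the start, the overexpressed Millipore list had a peak at 64.3% of the members and 61.5% of all genes.

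**Figure D3:**
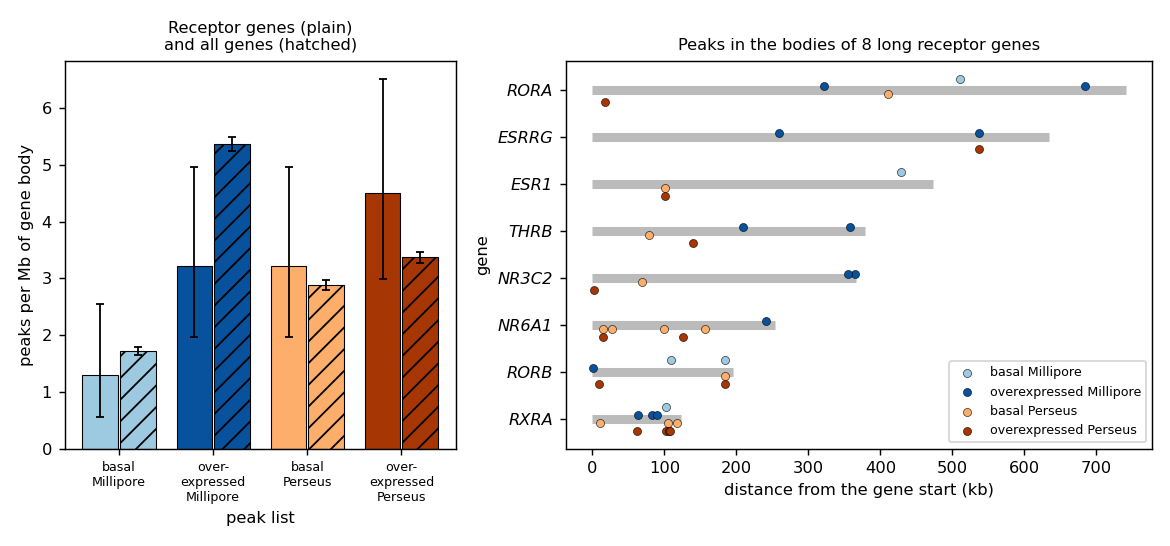
Left, peaks per Mb of gene body in each list for the 42 members (plain bars) and all protein-coding genes (hatched bars), with exact Poisson 95% intervals. Right, distance in kb from the gene start of each peak inside 8 long members, whose bodies are the grey lines. The members stand at 3.22 against 5.37 per Mb in the overexpressed Millipore list, and the site of RORB in 3 lists shows near the end of its body. Members and all genes were not matched on length.

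The NR2 and NR6 orphan receptors, a group of 10 that includes the HNF4 and COUP-TF genes, had 7 peaks near 3 genes in the basal Millipore list and 17 near 7 genes in the overexpressed Millipore list. With Perseus they had 19 near 6 genes and 23 near 7 genes. The shares of all genes with a peak within 100 kb were 30.7%, 61.5%, 47.2% and 51.2% in the same order of lists. NR6A1 (germ cell nuclear factor), a repressor that reads a sequence resembling the SF-1 consensus, carried 4, 7, 9 and 9 of the group's peaks. Its gene is a chromosome 9 neighbour of NR5A1, and the 100 kb windows of these genes do not overlap.

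The NR6A1 site in all 4 lists, chr9:127602451-127603099, was intergenic and about 69135 bp upstream of the start. Its rank was 4231 in basal Millipore, 4934 in overexpressed Millipore, 430 in basal Perseus and 184 in overexpressed Perseus, and its single copy was TCAAGGTCA. The nearest start was that of WDR38, about 12971 bp from the peak centre. Another site, in an intron of NR6A1 at 15140 bp, was found with Perseus at both dosages, with rank 2974 at basal and 1440 at overexpressed dosage, and also held TCAAGGTCA. Of the 29 NR6A1 peaks, 4 had NR6A1 as the nearest start and 7 held the consensus, with a site of several lists counted once per list.

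The COUP-TF genes encode factors that often repress their targets, and they did not behave alike. NR2F2 had 4 peaks in the basal Perseus list and 0 in the other lists, the 4 lying between 14958 and 31733 bp downstream with no copy of the consensus. NR2F1 had none. NR2F6 had 0, 3, 2 and 7 peaks, with 12 other protein-coding starts in its window, and its start was the nearest for 1 of the 12 peaks.

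NR2C2 (testicular receptor 4) was the member with start-proximal peaks in 3 lists. The overexpressed Millipore peak of rank 7375 and the basal Perseus peak of rank 4980 overlapped 365 to 340 bp upstream, in an exon of the antisense gene FGD5-AS1, and the overexpressed Perseus peak of rank 3301 was 760 bp downstream in an intron. None held the consensus, and all ranked in the middle or lower part of their lists. Over 100 kb NR2C2 had 0, 2, 1 and 2 peaks. The related NR2C1, with 1, 0, 0 and 1 peaks, had an overexpressed Perseus peak of rank 5367 at 229 bp, and NR2E1, with 0, 1, 2 and 2 peaks, had one of rank 3532 centred 26 bp upstream of the start. HNF4G, with 0, 1, 0 and 1 peaks, had an overexpressed Millipore peak of rank 6409, 749 bp upstream. HNF4A, a liver and gut factor, had 2, 1, 1 and 1 peaks, and NR2E3 had 0, 2, 0 and 0.

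The NR4A genes are immediate-early genes, induced within minutes to hours of a stimulus, and NR4A1 and NR4A2 are known to act on adrenal steroidogenic promoters. NR4A1 had 1, 5, 3 and 3 peaks, and NR4A3 had 1, 1, 2 and 3. NR4A2 had 1 peak, of rank 5443 in the overexpressed Perseus list at 9810 bp, which was 146 bp from another annotated transcript start. All 3 genes had a peak within 10 kb of the outermost start in the overexpressed Perseus list, where 17.1% of all genes had one. In the basal Millipore list 0 had one at that distance, beside 4.38% of all genes.

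For NR4A1, the peak of rank 172 in the overexpressed Millipore list lay in a coding exon of the gene, 32309 bp from the outermost start. The nearest annotated transcript start was 1463 bp from this peak. The same peak overlapped the overexpressed Perseus peak of rank 1349, and neither basal list had it. Downstream of the gene, a basal Perseus peak of rank 124 at 38759 bp held the copy CCAAGGTCA and was in no other list. The site in 3 lists at chr12:52458151-52458499 had rank 3172 in basal Millipore, 3345 in overexpressed Millipore and 3465 in basal Perseus, and had no copy. The peaks of that site lay 7862 to 7937 bp from the nearest annotated transcript start of NR4A1. Nearer the outermost start, basal Perseus rank 5290 at 884 bp overlapped overexpressed Perseus rank 2789 at 1009 bp.

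NR4A3 had peaks within 1 kb in both overexpressed lists, at different places. With Millipore the peak of rank 1714 lay 412 bp upstream, and with Perseus that of rank 2387 lay 488 bp downstream. A further site about 1987 bp upstream was called with Perseus at both dosages, with rank 424 at basal and 2457 at overexpressed dosage. None of these peaks held the consensus.

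**Figure D4:**
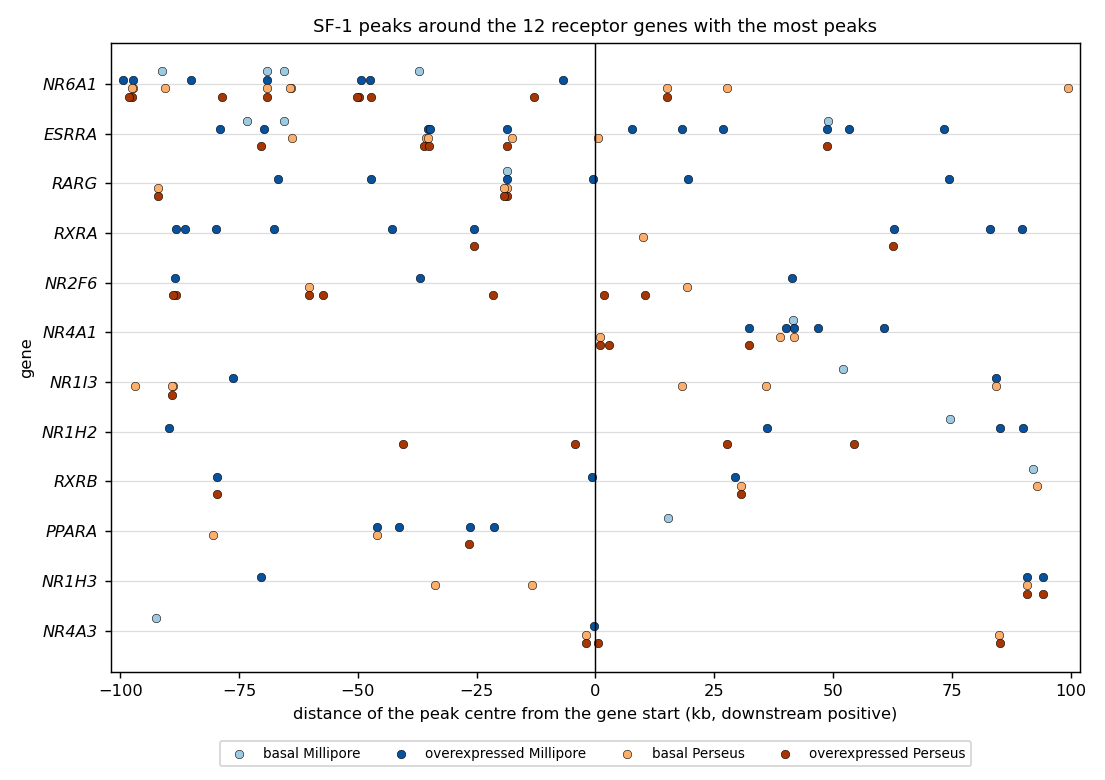
Distance in kb of each peak centre from the gene start (horizontal, downstream positive) for the 12 members with the most peaks within 100 kb (rows), with 1 point per peak coloured by list. Points of NR6A1 lie mostly upstream and those of RXRA on both sides, and NR4A3, NR4A1, RARG, RXRB and ESRRA have points close to 0.

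The 13 peaks within 1 kb of a member start held 0 copies of the consensus. Over all protein-coding genes, 12.1% of the 5415 peaks within 1 kb of a start held one. Within 10 kb the members had 27 peaks and 1 held a copy, the overexpressed Perseus peak of rank 3541 in an intron of NR4A1, where the share over all genes was 15.6%. Within 100 kb it was 35 of 223 peaks, and 16.6% over all genes. The peaks with a copy lay mostly beyond 10 kb, and so did the peaks near the members as a whole.

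By list, the share of peaks with a copy near the members was 5.26% (Wilson 0.935 to 24.6%) of 19 peaks for basal Millipore, against 16% of the whole list. It was 14.3% (8.17 to 23.8%) of 77 peaks for overexpressed Millipore, against 10.9%. It was 23.8% (15.0 to 35.6%) of 63 peaks for basal Perseus, against 21.6%, and 12.5% (6.47 to 22.8%) of 64 peaks for overexpressed Perseus, against 17.2%. All whole-list shares lay within the intervals. The overlap with any other list was also like that of the whole list, at 26.3, 23.4, 38.1 and 40.6% of peaks near members against 20.9, 16.6, 37.7 and 37.9%. Peaks near members were somewhat richer in GC, at 50.5, 60.1, 54.3 and 60.3% on average against 46.5, 55.4, 52.3 and 54.2%, and their median rank was between 43.6 and 50.9% of the list.

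The promoters gave few matches as well. RefSeq promoters (GRCh38.p14, from 250 bases before to 50 after a start) were matched to 38 members with 92 starts. The consensus was found in 1 of them, 1.09%, against 2.31% of promoters of genes named as protein-coding and 2.55% of all promoters. This was an NR2C2 promoter, chr3:14947333-14947632 in GRCh38.p14, with CCAAGGCCG 170 bases before the start, in the stretch cccggccgcggCCAAGGCCGgcggcagcta, shown because it is the one exact copy among these promoters. The half-site AGGTCA on either strand was found in 15.2% of the member promoters, against 11.7% and 13.8%.

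The peaks were often closer to another gene. A member was the nearest protein-coding gene for 2 of the 19 basal Millipore peaks, or 10.5% of pairs of a peak and a member, where over all genes 31.2% of such pairs within 100 kb had the nearest start. It was nearest in 32.5% of pairs for overexpressed Millipore (26.1% over all genes), 38.5% for basal Perseus (26%) and 39.1% for overexpressed Perseus (25.4%). In every list most pairs thus had a neighbour's start nearer to the peak. The share with the receptor nearest was below that of all genes in the basal Millipore list and above it in the other lists. No interval was computed for these shares, and the basal Millipore share rests on 19 peaks. The members had a median of 1 other protein-coding start within 100 kb, against 3 over all genes, and the part of this in the shares was not tested.

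The study asked how SF-1 dosage changes the sites it occupies, and near the receptor genes the numbers of peaks went differently with each antibody. With Millipore, the number of peaks within 100 kb of the members went from 19 at basal to 77 at overexpressed dosage, a ratio of 4.05 (exact interval 2.43 to 7.09), where the ratio of the whole lists was 2.71. With Perseus it went from 63 to 64, a ratio of 1.02 (0.706 to 1.46), where the whole lists gave 1.13. Both whole-list ratios lay within the members' intervals. When each list was held to its 4393 best-ranked peaks, the Millipore ratio near the members was 1.68, with lists of equal length.

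Gene by gene, 24 members had more Millipore peaks at overexpressed than at basal dosage, 2 (HNF4A and NR2C1) had fewer and 16 had the same number. Over all genes 53.7% had more and 8.72% fewer. With Perseus 13 had more, 12 had fewer and 17 had the same number, and over all genes 29% had more and 20.2% fewer. RXRA (0 and 9 peaks) and ESRRA (3 and 11 peaks) had the widest Millipore differences, and NR2F6 (2 and 7), NR1I3 (6 and 1), NR1H2 (0 and 4) and NR2F2 (4 and 0) the widest with Perseus.

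**Figure D5:**
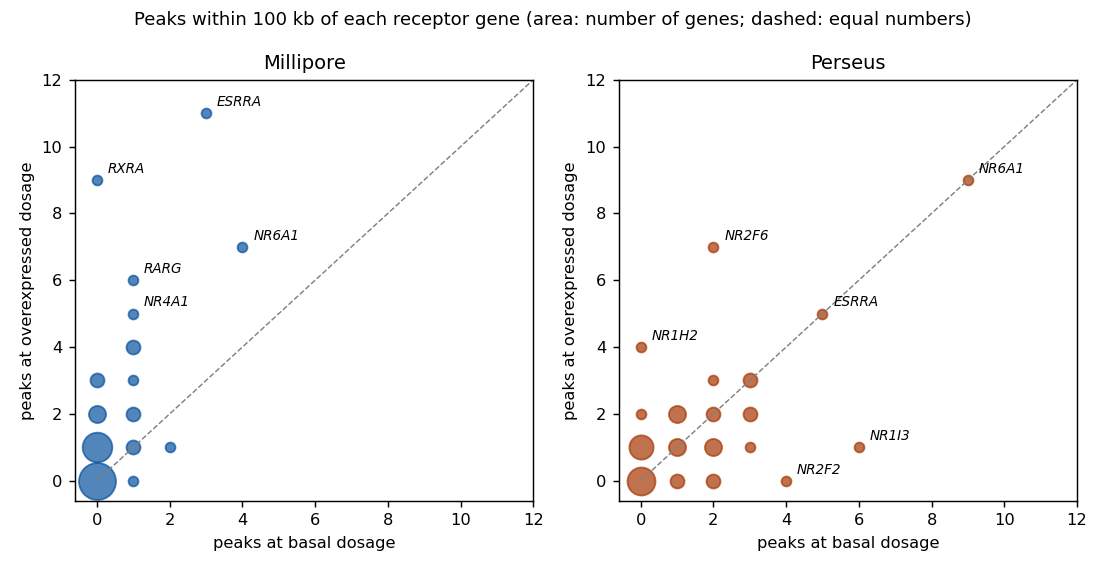
Number of peaks within 100 kb of each member at basal (horizontal) and overexpressed (vertical) dosage, for Millipore and Perseus, with the area of a point showing how many genes share it and a dashed line where the numbers are equal. With Millipore 24 members lie above the line of equal numbers and 2 below it, and with Perseus 13 lie above and 12 below.

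By presence alone, 12 members had a Millipore peak within 100 kb at both dosages (23.3% of all genes did), 1 at basal only (7.32%), 15 at overexpressed only (38.2%) and 14 at neither (31.2%). With Perseus 21 members had one at both dosages, or 50% beside 35.8% of all genes, 5 at basal only (11.4%), 8 at overexpressed only (15.4%) and 8 at neither (37.4%). Peaks that themselves overlapped between dosages were found near 4 members with Millipore, beside 7.33% of all genes, and near 12 with Perseus, beside 22.9%.

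Other gene groups, given by counts, put the members in place. Of 28 coregulators of nuclear receptors, 7, 21, 15 and 17 had a peak within 100 kb in the order of lists above, and none had a peak within 1 kb in all 4 lists. Of 53 FOX genes, another family of transcription factors, 11, 31, 25 and 22 had one. Of 19 SOX genes, also transcription factors, 6, 10, 9 and 6 had one. In the overexpressed Perseus list this is 69% of the members, 60.7% of coregulators, 41.5% of FOX genes and 31.6% of SOX genes. In the overexpressed Millipore list coregulators stood above the members, with 64.3% of the members, 75% of coregulators, 58.5% of FOX genes and 52.6% of SOX genes. The NR5A and NR0B receptors, left aside here, had a peak within 1 kb at 2 of 4 genes in the basal Millipore list, where the members had 0 of 42.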

How the data were processed

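The data were 4 lists of SF-1 ChIP-seq peaks in H295R/TR SF-1 cells. According to their methods, the authors processed reads with CASAVA 1.6 (per the labels), mapped them with ELAND to hg19 and called peaks with CisGenome SeqPeak on 3 pooled libraries per group against input. The deposited lists hold positions, a rank and a score of 1000 for every peak. The ranked quantity, depth and duplicate handling are not given in the sources used here, so ranks only order peaks within a list. A deeper library can yield a longer list.

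Peak centres were set against the outermost start of 20163 protein-coding genes (GENCODE 44 on GRCh37, the hg19 build). Overlap meant 1 bp or more. Starts fell on a 50 bp grid. The GC comparison summed class shares and drew no random genes. Promoter sequences were from RefSeq, GRCh38.p14.

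The members, lists and tests were chosen with earlier results of these data known. Members with a peak within 1 kb, near a site of 3 or 4 lists, or with the 3 highest totals were described by position and rank, and the rest by counts. The positions and ranks of NR3C1, NR3C2, PGR, ESR1, ESR2, RXRA, NR2F2, NR4A2, PPARA and RORB fall outside this rule and were chosen after their values were seen. Counting was tested on simulated data, where 600 of 600 counts and 200 of 200 planted copies of the consensus were recovered. Tools were Python 3.11.15 with pysam 0.24.0, pandas 2.3.3, numpy 2.4.6, scipy 1.17.1 and matplotlib 3.10.9. Alternatives to distance, list length, start, GC class and consensus are given in the closing section.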

Additional observations from a re-analysis of the deposited data

Results flagged for a closer look

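The change with dosage near the receptor genes differed between the antibodies. The ratio of overexpressed to basal peaks within 100 kb of the 42 members was 4.05 with Millipore and 1.02 with Perseus, and the ratio of these ratios was 3.97 (95% interval for counting error 2.16 to 7.31). It was 2.4 over the whole lists, which lies inside that interval. Each list was a single call on pooled libraries, and the part of read depth in this difference was not tested.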

How the results depend on the processing

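Of 156 alternative values for 32 results, 129 stayed within the margin of the value reported and 27 moved beyond it. A value within the margin could still change much in size. Within the margin, 3 values changed side. The count within 10 kb minus the number at other genes of the same GC class went from 1.31 to -0.319 for overexpressed Millipore with the same number of best-ranked peaks, and from -1.2 to 0.953 for basal Perseus with every transcript start. The Perseus dosage ratio went from 1.02 to 0.974 with the same number of best-ranked peaks. With the better-ranked 50% of each list, the members with a peak within 1 kb were 2 for overexpressed Millipore, 0 for basal Perseus and 3 for overexpressed Perseus. Within 10 kb they were 3, 2 and 7 in the same order, and within 100 kb 7 for basal Millipore, 17 for basal Perseus and 17 for overexpressed Perseus, and the share of basal Millipore peaks near members with the consensus was 0. With the same number of best-ranked peaks in every list, these were 2, 0 and 3 within 1 kb and 3, 2 and 7 within 10 kb, and 18 for overexpressed Perseus within 100 kb. In that setting the basal Perseus count within 1 kb minus the number at other genes of the same GC class was -2.9, and the Millipore dosage ratio was 1.68. Within 100 kb the same difference fell from 6.54 to 2.75 for basal Perseus and from 7.89 to 2.2 for overexpressed Perseus. For overexpressed Millipore it went from 1.45 to 3.3. These changes were counted as within the margin, although the Perseus excess lost most of its size. With every transcript start counted, members within 10 kb were 2 for basal Millipore (RORB and NR4A1), 14 for overexpressed Millipore and 8 for basal Perseus, beside 5.9%, 22.7% and 17.4% of all genes, and members within 1 kb were 10 for overexpressed Perseus, beside 12.7%. Members with a peak at both dosages were 0 with Millipore and 3 with Perseus at 10 kb in place of 100 kb, and 4 and 12 where the peaks had to overlap. Classes of GC crossed with gene density, merged peaks and the last 8 letters of the consensus moved no value beyond the margin. No paired analysis was possible because each list pools its 3 libraries, and for the same reason no library could be left out in turn. The unknown depth limits every count.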
